A study of Homo sapiens with 10 samples.

Results

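RNA of 9 genes that set the output of the antioxidant response was followed in RPE-1 cells treated with sulforaphane (SFN). They were the transcription factor genes NFE2L2 (encoding NRF2) and NFE2L1 (NRF1), the adaptor KEAP1 and its ubiquitin ligase scaffold CUL3, the small MAF genes MAFF, MAFG and MAFK, and the repressors BACH1 and BACH2. They were chosen by gene symbol and were 9 of the 28380 genes counted. RPE-1 is an established human retinal pigment epithelial line immortalized with telomerase. A group of 5 replicates received 25 µM SFN, an isothiocyanate from cruciferous vegetables, and a group of 5 received the vehicle DMSO, both for 4 h in otherwise unmodified cells at 50000 cells per replicate. The libraries were QuantSeq libraries, which read the 3′ ends of transcripts, and nothing in the labels says that replicates came from separate cultures, so p-values measure only the spread between these samples.

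NRF2 is a short-lived activator. In unstressed cells KEAP1 holds it on a CUL3 ubiquitin ligase that marks it for destruction, and electrophiles such as SFN modify cysteines of KEAP1 and let NRF2 escape. Stable NRF2 pairs with a small MAF protein and binds antioxidant response elements in genes for glutathione synthesis, thioredoxin reduction and heme breakdown, while BACH1 and BACH2, with the same partners, occupy such elements as repressors.

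Levels are given as CPM, counts scaled to a common library total. Total counts ranged from 15689294 to 20666692 in DMSO and from 12375860 to 17308706 in SFN. DMSO replicate 1 stood apart, with a mean Spearman correlation to its own group of 0.935 against 0.979 to 0.982 for the other 4 DMSO libraries, so results resting on it are given with and without it. Of 13378 genes that passed the count filter, edgeR's quasi-likelihood test put 1214 higher in SFN at a Benjamini-Hochberg adjusted p under 0.05, a background of 9.07%, and 1862 lower, a background of 13.9%. Higher genes made up 39.5% of calls with TMM scaling and 27.5% with scaling by library size alone, under which the median log2 fold change of all genes moved from -0.03 to -0.11. The pigment epithelium label was only partly met, since 4 mature markers, RPE65, RLBP1, TTR and SERPINF1, had at most 4 counts in any library, whereas BEST1 (18.8 ± 13.7 CPM in DMSO and 42.4 ± 36.7 CPM in SFN), MITF, OTX2, SOX9 and PAX6 were present and PMEL was low, with 7 to 29 counts. MITF (log2 fold change -1.12, SE 0.12), OTX2 (-0.64, SE 0.12) and SOX9 (-1.36, SE 0.14) were called lower in SFN. BEST1 had a log2 fold change of 1.17 (SE 0.56, not called) and was called higher at 1.68 without DMSO replicate 1. LRAT had 3 to 12 counts and TYR was not among the genes counted. The summed level of the 11 counted pigment epithelium markers was 176 to 216 CPM in DMSO and 131 to 204 in SFN. Of epithelial and mesenchymal markers, KRT8, KRT18 and KRT7 had means of 383, 196 and 27.9 CPM in DMSO. VIM, FN1 and COL1A1 had 5688, 8367 and 15.2 CPM. EPCAM had at most 2 counts in any library, and CDH1 was not among the genes counted. The 7 counted blood, endothelial and neural markers summed to 0.355 to 2.37 CPM in DMSO and 0.706 to 2.38 in SFN. The part of these markers in the results below was not tested. In bulk RNA, a change in the number of cells of a kind and a change in RNA per cell cannot be told apart.

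Among the factor genes, the activator NFE2L2, all of the small MAF partners and the repressor BACH1 rose after 4 h of SFN, while KEAP1, CUL3 and NFE2L1 did not pass the test. Of the 9 genes, 8 passed the count filter and 5 were called higher, against the background of 9.07%, and 0 were called lower, against 13.9%. No factor gene was lower at an unadjusted p under 0.05 either, where 6 were higher. The share of all genes at that threshold is not given here. DESeq2 and limma-voom each called 0 factor genes lower, beside 2121 and 1544 of the 13378 genes tested. With 8 genes, 0 lower cannot be told from such shares. The fold change exceeded 2 for 3 genes, MAFF, MAFG and BACH1, all relative to a median log2 fold change of -0.03 over all genes tested. The median of the 8 tested genes was 0.59, and 0.60 without DMSO replicate 1. Without that library the calls were again 5 higher and 0 lower, but the background rose to 22.5% higher and 23.5% lower of 13566 genes.

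**Figure D1:**
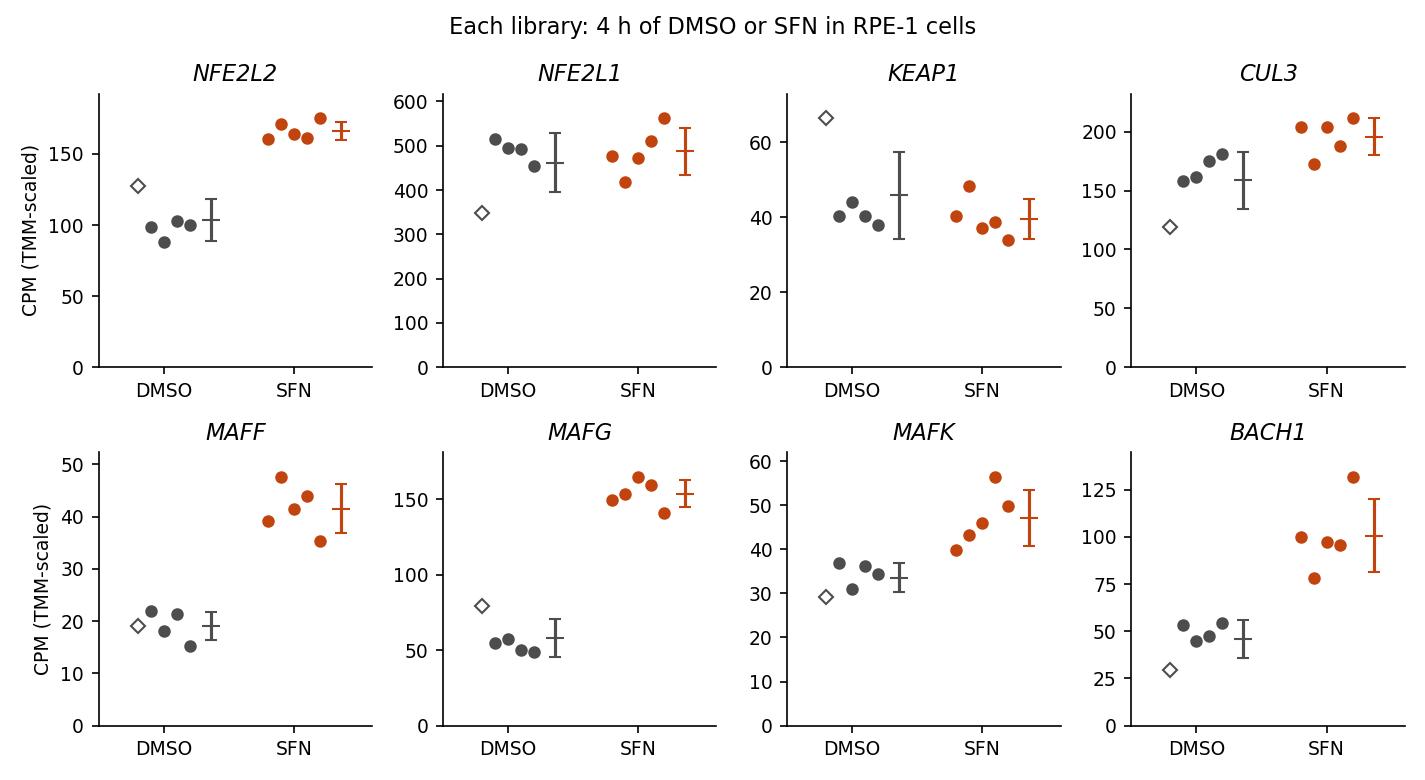
CPM (TMM-scaled, linear axes from 0) of the 8 factor genes that passed the count filter, 1 point per library, with the mean and SD of each group of 5 beside the points. The open diamond is DMSO replicate 1, which is the highest DMSO library for KEAP1 (66.4 CPM) and MAFG (79.4 CPM) and the lowest for BACH1 (29.6 CPM).

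NFE2L2, the NRF2 gene itself, lies on chromosome 2 at 177218667 to 177392756 on the minus strand (GRCh38). Its level in DMSO replicates 1 to 5 was 128, 98.7, 87.7, 103 and 100.1 CPM, and in SFN replicates 1 to 5 it was 160.2, 171, 164, 161 and 175 CPM. Every SFN library was above every DMSO library. The wider spread of the DMSO group rested on DMSO replicate 1. Without that library the DMSO SD was 6.64 CPM, near that of SFN. The mean went from 103 ± 14.8 to 166 ± 6.48 CPM (SD, n = 5 per group). By edgeR's quasi-likelihood test the log2 fold change was 0.69 (SE 0.11, 95% interval 0.44 to 0.93, Benjamini-Hochberg adjusted p = 8.9e-04), a 1.61-fold rise. It was 0.77 (SE 0.08) without DMSO replicate 1. The rise was larger than that of 94.2% of genes tested, though smaller than the changes in MAFG, BACH1 and MAFF.

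NFE2L1 encodes NRF1, a relative of NRF2 that is anchored in the endoplasmic reticulum and drives proteasome genes when proteasomes fail. It lies on chromosome 17 at 48048329 to 48061545 on the plus strand. The DMSO libraries held 349, 515, 496, 492 and 454 CPM and the SFN libraries 476, 417, 473, 509.7 and 562 CPM. The groups overlapped widely, with only SFN replicate 5 above all DMSO libraries. The mean was 461 ± 66.6 CPM in DMSO and 488 ± 53.1 CPM in SFN (SD, n = 5 per group). The log2 fold change of 0.08 (SE 0.13) did not pass edgeR's quasi-likelihood test (Benjamini-Hochberg adjusted p = 0.72), and its 95% interval of -0.20 to 0.37 allows folds from 0.868 to 1.29. Its sign turned with library size scaling, limma-voom and without DMSO replicate 1.

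KEAP1, the sensor that binds NRF2 for degradation, lies on chromosome 19 at 10486125 to 10503558 on the minus strand. Its level was 66.4, 40.5, 44.1, 40.2 and 38.1 CPM in the DMSO libraries and 40.2, 48.2, 37.1, 38.8 and 33.9 CPM in the SFN libraries. DMSO replicate 1 was far above its group, and only 2 SFN libraries were below every DMSO library. With all libraries the mean was 45.8 ± 11.7 CPM in DMSO and 39.6 ± 5.35 CPM in SFN (SD, n = 5 per group). The log2 fold change was -0.21 (SE 0.17, 95% interval -0.57 to 0.15), which did not pass edgeR's quasi-likelihood test (Benjamini-Hochberg adjusted p = 0.42). Without DMSO replicate 1 the DMSO mean was 40.7 ± 2.48 CPM and the log2 fold change -0.05 (SE 0.10), with 1 SFN library above and 2 below all of the other 4 DMSO libraries.

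CUL3, the scaffold of the ligase that KEAP1 feeds, lies on chromosome 2 at 224470150 to 224585397 on the minus strand. The DMSO libraries held 119, 158, 162, 175 and 181 CPM and the SFN libraries 204, 173, 204, 188 and 211 CPM. DMSO replicate 1 was the lowest library, and 4 of 5 SFN libraries were above every DMSO library. The mean was 159 ± 24.3 CPM in DMSO and 196 ± 15.5 CPM in SFN (SD, n = 5 per group). The log2 fold change of 0.30 (SE 0.12, 95% interval 0.03 to 0.58) had a Benjamini-Hochberg adjusted p of 0.11 by edgeR's quasi-likelihood test and was not called. Without DMSO replicate 1 the log2 fold change was 0.21 (SE 0.08), with an adjusted p of 0.056 by the same edgeR test. CUL3 was called in 1 of 16 alternatives, DESeq2's Wald test, with an adjusted p of 0.047.

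The promoter window of KEAP1 is shown because it holds the antioxidant response element core TGACNNNGC (N is any base, both strands searched), to which NRF2 and small MAF or BACH1 and small MAF pairs bind. Windows ran from 250 bases before to 50 after a RefSeq start site. MAFK had no window and was not searched. Of 35116 windows, 13.3% held the core, as did 16.1% of the 27305 genes with a window, 2 of the 8 factor genes with a window (KEAP1 and MAFF) and 10 of the 26 NRF2 target genes listed here with a window. In KEAP1 the core occurred at position -54 from the start on the gene's own strand and at position -31 on the opposite strand, where the letters TGACTAAGC read 5′ to 3′ are also those of the GCLM window at -34. None of the matches in KEAP1, MAFF or GCLM overlapped the AP-1 motif TGANTCA. The sequence is RefSeq GRCh38.p14, chr19:10502722-10503021, minus strand, 5′ to 3′, with both cores in capitals. KEAP1's other window, at the more upstream start, held none.
KEAP1: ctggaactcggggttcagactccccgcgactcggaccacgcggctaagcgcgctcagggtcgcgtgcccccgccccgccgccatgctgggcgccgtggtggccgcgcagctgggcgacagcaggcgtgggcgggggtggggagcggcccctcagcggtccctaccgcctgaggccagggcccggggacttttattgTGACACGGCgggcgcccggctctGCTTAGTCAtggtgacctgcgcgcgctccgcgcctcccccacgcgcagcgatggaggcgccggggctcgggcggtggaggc
KEAP1, with its pair of cores, was not called in either direction, and a match in these windows describes letters only.

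**Figure D2:**
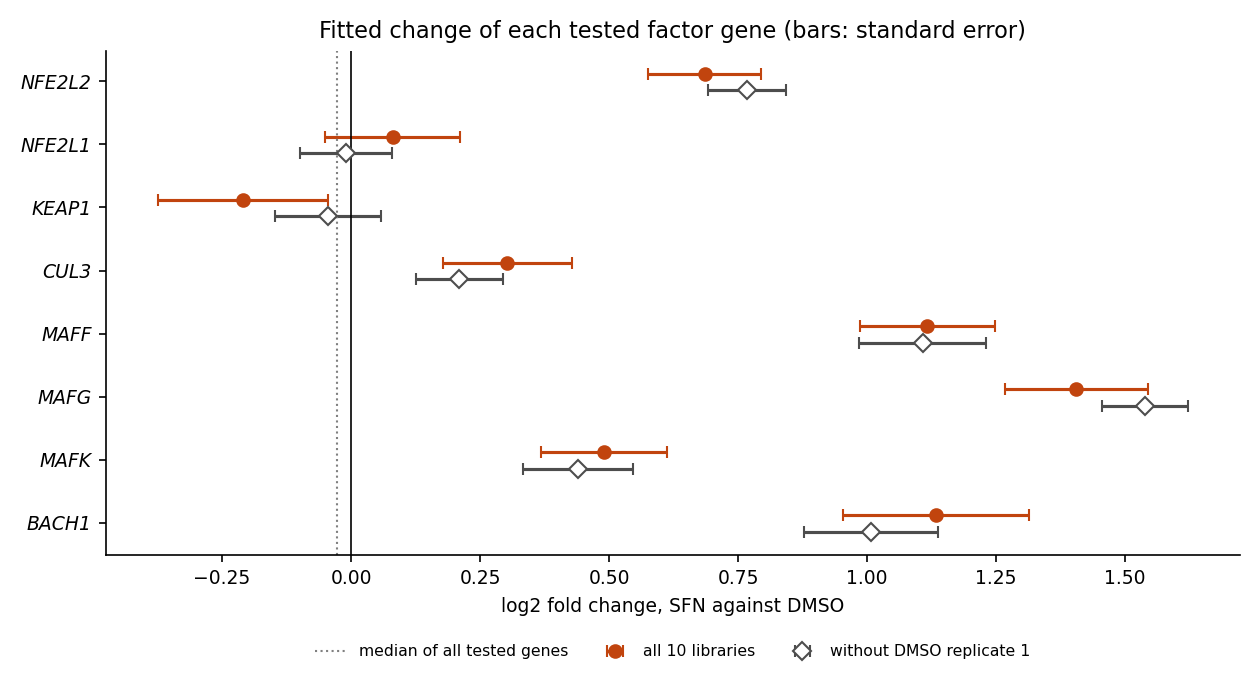
Log2 fold change of SFN against DMSO (x axis) fitted by edgeR for each of the 8 tested factor genes, with all 10 libraries (filled) and without DMSO replicate 1 (open); bars are standard errors and the dotted line is the median of all genes, -0.03. MAFG lies farthest right at 1.40 and KEAP1 moves from -0.21 to -0.05 when DMSO replicate 1 is left out.

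The small MAF proteins have a DNA-binding leucine zipper but no activation domain, so they act as partners of NRF2, NRF1 and the BACH repressors. All 3 of the genes rose, but not equally.

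MAFF, on chromosome 22 at 38200767 to 38216507 (plus strand), held 19.0, 21.9, 18.1, 21.4 and 15.2 CPM in the DMSO libraries and 39.1, 47.6, 41.4, 44 and 35.3 CPM in the SFN libraries. The groups did not overlap. The mean went from 19.1 ± 2.71 to 41.5 ± 4.69 CPM (SD, n = 5 per group). The log2 fold change was 1.12 (SE 0.13), a 2.17-fold rise with a Benjamini-Hochberg adjusted p of 9.2e-05 in edgeR's quasi-likelihood test. It was 1.11 without DMSO replicate 1.

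MAFG, on chromosome 17 at 81918270 to 81927735 (minus strand), held 79.4, 54.5, 57.1, 50.4 and 48.8 CPM in DMSO and 149, 154, 165, 159.7 and 141 CPM in SFN. The groups did not overlap, although DMSO replicate 1 was well above its group. The mean went from 58.0 ± 12.4 to 154 ± 9.22 CPM (SD, n = 5 per group). Its rise was the largest among the 8 tested factor genes: a log2 fold change of 1.40 (SE 0.14), 2.65-fold, with a Benjamini-Hochberg adjusted p of 2.8e-05 in edgeR's quasi-likelihood test, above 98.1% of genes. Without DMSO replicate 1 the log2 fold change was 1.54 (SE 0.08).

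MAFK, on chromosome 7 at 1530702 to 1543043 (plus strand), held 29.2, 36.8, 31.0, 36.1 and 34.3 CPM in DMSO and 39.8, 43.3, 45.9, 56.4 and 49.7 CPM in SFN. The groups were separate by a narrow gap between 36.8 and 39.8 CPM. The mean went from 33.5 ± 3.29 to 47.0 ± 6.37 CPM (SD, n = 5 per group). The log2 fold change was 0.49 (SE 0.12), 1.40-fold, with a Benjamini-Hochberg adjusted p of 0.012 in edgeR's quasi-likelihood test. It was called in 15 of 16 alternatives and missed with scaling by library size alone, where it was 0.40 with an adjusted p of 0.073.

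Summed over the 3 genes, small MAF RNA was 98.3 to 128 CPM in DMSO and 226 to 260 CPM in SFN, which is 2.19 times the DMSO mean. The ratio of MAFG to MAFK within each library rose by 0.94 on the log2 scale and that of MAFF to MAFK by 0.64, and in both pairs every SFN library was above every DMSO library. The MAFF to MAFK difference was 0.68 without DMSO replicate 1 and 0.55 without DMSO replicate 5, and the MAFG to MAFK difference was 1.11 without DMSO replicate 1. Each gave an exact two-sided permutation p of 0.0079, the smallest that 5 against 5 libraries allow, and 0.016 after Benjamini-Hochberg adjustment over the 6 ratios compared. Relative to MAFK, the share of MAFG and MAFF transcripts was thus higher in SFN.

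The windows of MAFF and MAFG are shown because both RNAs rose more than 2-fold. Between them, only that of MAFF holds the core. In MAFF the core lies at position -122 on the opposite strand, with the letters TGACCCCGC read 5′ to 3′. MAFF's other window, at a more downstream start, held none. BACH1 also rose more than 2-fold, and its 3 windows held none. The MAFF sequence is chr22:38201744-38202043, plus strand, and the MAFG sequence chr17:81927686-81927985, minus strand, both RefSeq GRCh38.p14, 5′ to 3′ with the core in capitals.
MAFF: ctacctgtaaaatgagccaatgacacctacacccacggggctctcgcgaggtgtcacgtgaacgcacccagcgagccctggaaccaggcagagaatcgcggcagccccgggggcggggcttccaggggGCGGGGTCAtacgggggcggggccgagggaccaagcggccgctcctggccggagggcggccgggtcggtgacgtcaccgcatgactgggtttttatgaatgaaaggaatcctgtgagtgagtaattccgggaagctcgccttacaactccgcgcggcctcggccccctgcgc
MAFG: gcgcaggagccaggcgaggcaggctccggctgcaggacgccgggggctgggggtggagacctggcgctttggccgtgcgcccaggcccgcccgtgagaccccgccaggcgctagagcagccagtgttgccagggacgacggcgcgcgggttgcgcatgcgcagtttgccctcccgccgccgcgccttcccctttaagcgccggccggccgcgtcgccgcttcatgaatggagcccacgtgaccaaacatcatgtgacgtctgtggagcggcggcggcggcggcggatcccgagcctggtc
No window of NFE2L2, NFE2L1, CUL3, BACH1 or BACH2 held the core either, which says only that these letters are not in those windows. For MAFK there was no window to search.

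BACH1, a heme-binding repressor best known for holding HMOX1 down, lies on chromosome 21 at 29194071 to 29630751 on the plus strand. The DMSO libraries held 29.6, 53.2, 44.7, 47.3 and 54.6 CPM and the SFN libraries 99.9, 78.5, 97.6, 95.8 and 132 CPM. The groups did not overlap, with DMSO replicate 1 the lowest of all and SFN replicate 5 the highest. The mean went from 45.9 ± 9.96 to 101 ± 19.3 CPM (SD, n = 5 per group). The log2 fold change was 1.13 (SE 0.18), 2.19-fold, with a Benjamini-Hochberg adjusted p of 8.2e-04 in edgeR's quasi-likelihood test. It was 1.01 (SE 0.13) without DMSO replicate 1.

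BACH2, the relative of BACH1 that is prominent in lymphocytes, was essentially not counted. It had 0 counts in 8 of 10 libraries, 1 in DMSO replicate 2 and 4 in SFN replicate 2. A floor of 3 counts corresponds to 0.137 to 0.259 CPM per library, so no fold is given. That floor covers counting error only, whereas the 95% intervals of the fitted fold changes include the spread between libraries.

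The groups of 5 genes, NFE2L2, MAFF, MAFG, MAFK and BACH1, did not overlap, with SFN above, and 0 genes had SFN below. Over all genes tested, 8.78% had SFN entirely above and 11.1% entirely below. The spread between libraries exceeded counting error for all of the tested factor genes, for example a coefficient of variation of 14.3% for NFE2L2 in DMSO against 2.33% from counting, and 3.89% against 2.06% in SFN.

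**Figure D3:**
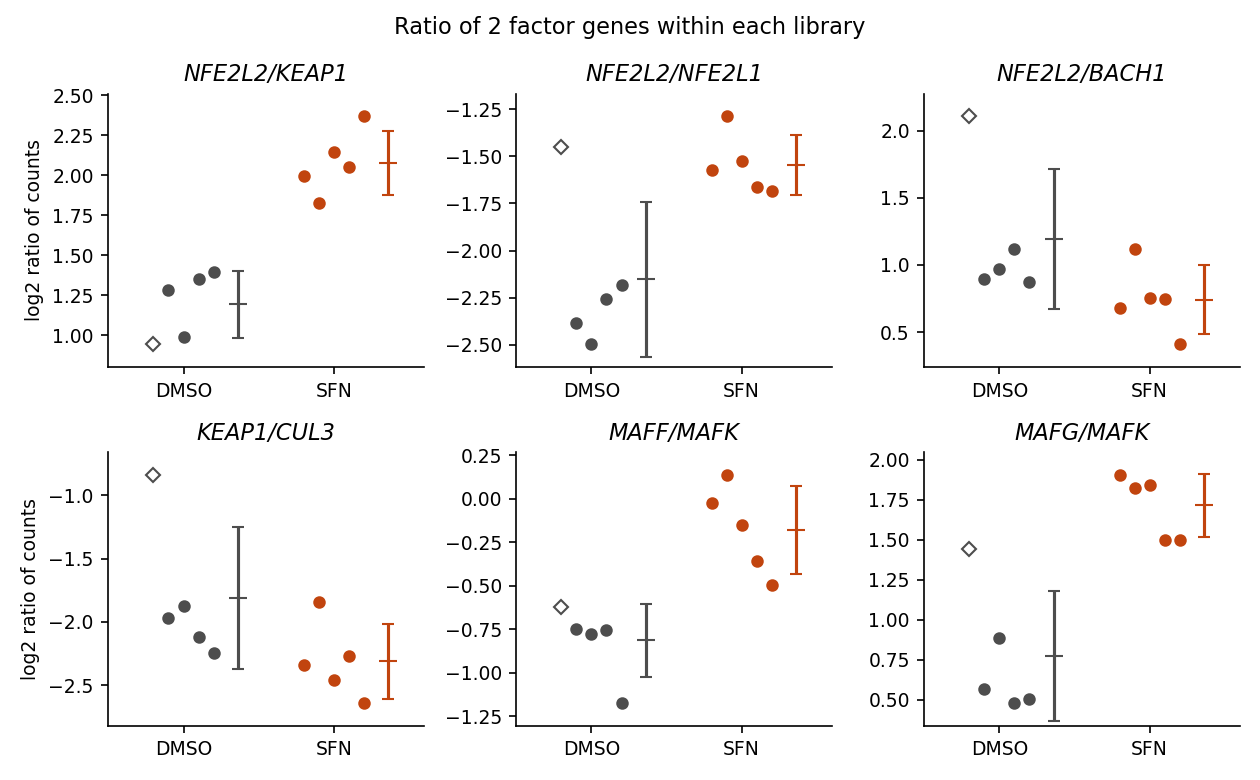
Log2 ratio of counts of 2 factor genes in each library (y axes do not start at 0), with the mean and SD of each group of 5; the open diamond is DMSO replicate 1. SFN lies above DMSO without overlap for NFE2L2/KEAP1, MAFF/MAFK and MAFG/MAFK.

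The ratio of activator to inhibitor RNA was compared within libraries, which removes library scaling. The log2 ratio of NFE2L2 to KEAP1 went from 1.19 ± 0.21 in DMSO to 2.08 ± 0.20 in SFN (SD, n = 5 per group), a 1.84-fold shift. All 5 SFN libraries were above all DMSO libraries (exact two-sided permutation p = 0.0079, adjusted over the 6 ratios 0.016), and without DMSO replicate 1 the shift was 0.82. The ratio of NFE2L2 to NFE2L1 was 0.61 higher on the log2 scale but missed the threshold (exact permutation p = 0.040, adjusted 0.060); without DMSO replicate 1 it was 0.78 (adjusted 0.016) and without SFN replicate 2 it was 0.54 (adjusted 0.048). The log2 difference, SFN minus DMSO, was -0.45 for NFE2L2 to BACH1 (exact permutation p = 0.095, adjusted 0.095) and -0.50 for KEAP1 to CUL3 (exact permutation p = 0.087, adjusted 0.095). Those values were -0.22 and -0.26 without DMSO replicate 1. Without SFN replicate 2 they were -0.55 and -0.62, with adjusted p values of 0.036 and 0.038 by the exact permutation test.

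Genes whose pattern over the 10 libraries was most like that of 3 factor genes were found by the root mean square difference of centred log2 CPM, over 10038 genes of at least 5 CPM. For NFE2L2 they were SYVN1 (0.0770), GPX8 (0.0776) and SLC30A7 (0.0834), where the median gene stood at 0.469. For KEAP1 they were TRIM56 (0.0772), PUF60 (0.0774) and ATAD3B (0.0783), against a median of 0.392. For MAFG they were THOC6 (0.0969), DUSP5 (0.101) and HMOX1 (0.109), against a median of 0.780. The 10 libraries include both treatments, so the measure holds the difference between treatments as well as the spread within them.

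The other genes of the pathway were counted as whole lists, with log2 fold changes. Among 11 genes of the ligases that degrade NRF2, or of proteins that act with or against them, 2 rose and 1 fell. For this and the next 4 lists, the backgrounds over all genes tested are 9.07% higher and 13.9% lower, and in lists this short 1 or 2 calls cannot be told from those shares. SYVN1, an endoplasmic reticulum ubiquitin ligase, rose by 0.75 (SE 0.12) and FBXW11, a beta-TrCP protein, by 0.55 (SE 0.18), while BTRC, the other beta-TrCP gene, fell by 0.79 (SE 0.22), on the log2 scale, and edgeR's quasi-likelihood test gave them Benjamini-Hochberg adjusted p values of 6.9e-04, 0.040 and 0.023. Among 7 genes whose proteins bind KEAP1 or NRF2 and can keep them apart, SQSTM1 (0.35, SE 0.09) and CDKN1A (0.46, SE 0.13) rose and AMER1 fell, from 4.49 ± 1.91 to 0.350 ± 0.142 CPM (log2 fold change -3.65, SE 0.45). Leaving out DMSO replicate 1 gave 5 higher and 2 lower in the first of these lists and 2 higher and 3 lower in the second, where the backgrounds were 22.5% and 23.5%. The call of BTRC was lost when any of DMSO replicates 2 to 5 or SFN replicates 1 to 3 was left out, and on leaving out each library in turn the first list had 1 to 5 higher and 0 to 2 lower. The second had 0 to 2 higher, with 0 without DMSO replicate 4, and 1 to 3 lower. Library size scaling, no count filter and the replicate block each also left 0 of the second list higher.

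Of 8 coactivators and corepressors, RXRA, a retinoid receptor that binds NRF2, was the single call, lower by a log2 fold change of -0.53 (SE 0.16), and the call was lost without DMSO replicate 3 or 4 or SFN replicate 1, 3 or 5. Of 6 other CNC and large MAF genes only NFE2L3 had enough counts for a test, with a log2 fold change of -0.09 (SE 0.09, not called), and NFE2, MAFA and NRL had at most 10 counts in any library. Of 6 genes for NRF1 processing and BACH1 degradation, RBCK1 (0.30, SE 0.10) rose, whereas DDI2, the protease that cleaves NRF1 (-0.60, SE 0.19), and FBXO22, a ligase adaptor for BACH1 (-0.41, SE 0.12), fell. These calls were near the threshold: on leaving out a library in turn, the count called higher in the last list ranged from 0 to 3 and the count called lower from 0 to 2.

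Genes known as NRF2 targets were read next, and whether NRF2 drove their changes here was not tested. Of 35 listed, 31 were tested, 7 were called higher, 0 lower, and 26 had a positive log2 fold change, with a median of 0.31 against -0.03 for all genes tested. The backgrounds over all genes tested were 9.07% higher and 13.9% lower. By unadjusted p under 0.05, edgeR gave 9 higher and 0 lower, a threshold whose share over all genes is not given here. DESeq2 and limma-voom also called 0 of the list lower, beside 2121 and 1544 of the 13378 genes tested. The largest rises were ABCC2, a conjugate exporter (1.63, SE 0.35), SLC7A11, the cystine importer (1.61, SE 0.19), HMOX1, heme oxygenase (1.42, SE 0.12, 19.9 ± 3.01 to 53.1 ± 3.13 CPM), and GCLM, the glutathione synthesis modifier (1.30, SE 0.17), with FTL, ferritin light chain, next (0.68, SE 0.23). In edgeR's quasi-likelihood test the Benjamini-Hochberg adjusted p values were 0.0059, 8.5e-05, 9.9e-06, 2.0e-04 and 0.049 in that order. ABCC2 was low, at 0.54 ± 0.29 CPM in DMSO and 1.68 ± 0.45 CPM in SFN, with 4 to 32 counts per library. NQO1, the quinone reductase often used as a reporter of NRF2, was 216 ± 53.6 CPM in DMSO and 268 ± 23.0 CPM in SFN (SD, n = 5 per group) and was not called (log2 fold change 0.31, SE 0.15). It was 0.48 and called without DMSO replicate 1. Without DMSO replicate 1 the counts were 19 higher and 1 lower (ABCC1, an exporter, at -0.26) of the list, beside backgrounds of 22.5% and 23.5%, so the number of target genes called depended on that library.

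**Figure D4:**
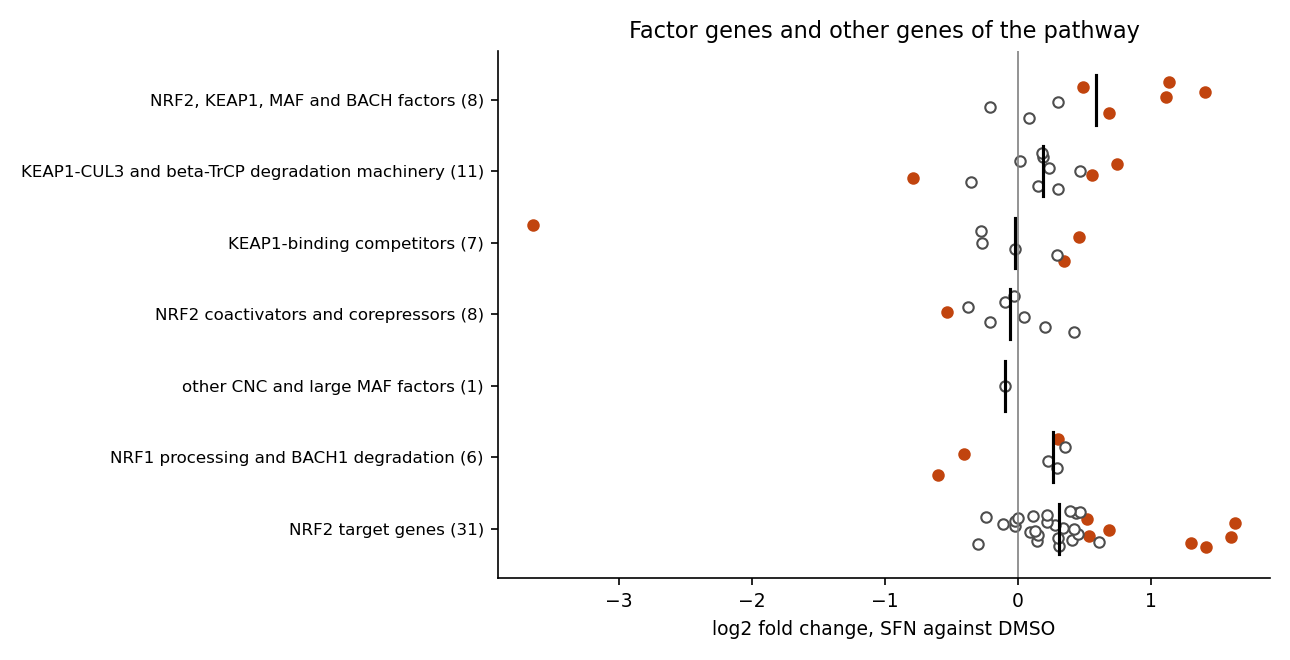
Log2 fold change of SFN against DMSO (x axis) for the tested genes of each list, with the number tested in parentheses; filled points passed edgeR's adjusted p threshold of 0.05, open points did not, and the black tick is the list's median. The NRF2 target genes have a median of 0.31, and AMER1 lies at -3.65.

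Reads of overlapping genes could be mixed, since the use of strand in the counting is not given in the sources used here. NFE2L2 overlaps HNRNPA3 and AGPS on the other strand, with log2 fold changes of -0.02 (SE 0.12) and -0.14 (SE 0.19). HNRNPA3 had 12660 to 28631 counts per library and AGPS 1300 to 3671, against 1569 to 2688 for NFE2L2. MAFG overlaps SIRT7 on the same strand, with a log2 fold change of 0.12 (SE 0.17). SIRT7 had 376 to 676 counts, against 824 to 2507 for MAFG. None of these overlapping genes was called. MAFF overlaps PLA2G6, which had 17 to 30 counts. Only MAFK had another gene, TMEM184A, with an exon in the last 500 bases of its canonical transcript, and that gene had at most 43 counts.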

How the data were processed

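RNA from 10 RPE-1 samples was measured. The authors prepared Lexogen QuantSeq libraries and ran the Bluebee pipeline on the reads. The values they deposited are raw counts for 28380 Ensembl genes, without normalization and with replicates separate. The submitters' processing notes name FastQC, STAR, featureCounts, edgeR, hg38 and GRCh38. Counting rules for strand and molecular identifiers, and versions, are not given in the sources used here. The authors' dream model with repeated measures was not run here, because the repeated measure is not defined. Its nearest alternative was limma-voom on quantile normalized values.

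Counts were filtered with filterByExpr, scaled by TMM and tested with glmQLFit and glmQLFTest in edgeR 4.0.16 (limma 3.58.1, DESeq2 1.42.0, R 4.3.3), with Benjamini-Hochberg adjustment over all genes tested. The SE is the size of the log2 fold change over the square root of the F statistic. CPM values are TMM-scaled. Ratios were taken with a pseudocount of 0.5 counts and compared by exact permutation tests over libraries, two-sided, and 6 pairs were compared. Positions came from GENCODE 44 (28145 of 28380 identifiers matched) and promoter windows from RefSeq. The 46 rows with no symbol were kept, since each has an Ensembl identifier. The tests were checked on simulated counts, with a wider bound on false calls for DESeq2 than for edgeR and limma-voom. The simulated libraries did not include an outlying library such as DMSO replicate 1. Samples were grouped by their treatment label, and the chi-square per degree of freedom between replicates was 3.50 to 243, so no pair was within sampling noise. Genes named are the 9 factor genes, the called genes of each pathway list (up to 5 in each direction), the 3 genes most like NFE2L2, KEAP1 and MAFG, and genes overlapping a factor gene. NQO1, ABCC1, NFE2L3, NFE2, MAFA, NRL and the marker genes were named outside that rule after their values were seen. The genes and lists were chosen with earlier results of these data known. Alternatives covered normalization, test, filter, a replicate block, the fold limit, the ratio pseudocount and leaving out each replicate.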

Additional observations from a re-analysis of the deposited data

Results flagged for a closer look

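In 28 groups of 5 libraries (CPM and ratios of the factor genes), the gap of the extreme library to its nearest neighbour, as a share of the group's range, exceeded Dixon's critical value of 0.71 in 5 cases, where chance gives about 1.4. DMSO replicate 1 accounted for 4 of them: KEAP1 (0.788), MAFG (0.727), the NFE2L2 to BACH1 ratio (0.801) and the KEAP1 to CUL3 ratio (0.736). DMSO replicate 5 was the fifth, low in the MAFF to MAFK ratio (0.715). The report gives the first 4 also without DMSO replicate 1, and the MAFF to MAFK ratio also without DMSO replicate 5.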

How the results depend on the processing

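Of 128 comparisons of a factor gene's fold change with its alternative (8 genes, 16 alternatives), 123 kept direction and side of the threshold. NFE2L2, MAFF, MAFG and BACH1 were called in all 16. NFE2L1 changed sign with library size scaling (-0.016), limma-voom (-0.073) and on leaving out libraries in turn (-0.0096 to 0.14), CUL3 passed under DESeq2 (0.32) and MAFK missed with library size scaling (0.40). Requiring an absolute log2 fold change above 1 left 3 factor genes higher, 393 genes higher and 770 lower among all, and 4 NRF2 target genes. Leaving out each library in turn gave 906 to 3058 genes higher and 1470 to 3193 lower, and 6 to 19 NRF2 target genes higher and 0 to 1 lower, the highest always without DMSO replicate 1. Over the same settings the log2 ratio difference was 0.52 to 0.78 for NFE2L2/NFE2L1, -0.55 to -0.22 for NFE2L2/BACH1 and -0.62 to -0.26 for KEAP1/CUL3. The cause was not tested.

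Whether replicate numbers pair the samples is not given in the sources used here. Same-numbered deviations from the group means correlated at 0.05, -0.33, -0.08, 0.04 and 0.56, too few values to settle it. Only DMSO replicate 5 correlated best with the SFN library of its own number. With a replicate block, edgeR called 911 genes higher and 1530 lower, and 5 factor genes higher. The blocked ratio differences for NFE2L2/KEAP1 (0.88), MAFF/MAFK (0.64) and MAFG/MAFK (0.94) then had adjusted p = 0.12 by an exact sign-flip permutation test, a design whose smallest p is 0.0625. Low counts limit AMER1 in SFN, ABCC2 and BACH2.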
